A study of Mus with 8 samples.

Results

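C/EBPβ was listed at 1434 strong sites in induced Prep1 down-regulated 3T3-L1 cells that had no peak in any other list of the series. These sites were chosen from 4 peak lists. Peaks that overlapped by 1 bp or more were merged into 28658 regions, and a region was kept when it held a peak of induced P cells only and the −log10 p of that peak was 30 or more. The sites are called members below. Both the presence in one list and the p value chose them, so the values of C/EBPβ at the members are given as a description and were not tested.

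3T3-L1 is a mouse preadipocyte line that turns into adipocytes under a hormone mixture. C cells had been infected with a lentivirus carrying a scrambled hairpin. P cells carried a hairpin against Prep1, the first of those the study tried, and both had been selected with puromycin. Each cell type is thus a selected population, and Prep1 was lowered and not deleted. Chromatin was taken before induction (day −2) and 4 h after the change to medium with dexamethasone, 3-isobutyl-1-methylxanthine and insulin. There were 8 samples, a ChIP and an input library for each of the 4 conditions, with 1 sample per group, so no test between conditions was possible and the intervals given cover counting error only.

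C/EBPβ is a basic leucine zipper factor that binds DNA as a dimer. In preadipocytes it is among the first factors switched on by the hormone mixture, it occupies enhancers before Pparγ and C/EBPα are made, and it takes part in opening those enhancers. Prep1 is a homeodomain protein of the TALE class that binds DNA together with Pbx proteins. The comparison asks at which sites C/EBPβ was found when Prep1 was lowered and not otherwise. The positions are mm9 coordinates. Genes are not named and no sequence is shown, because no genome or annotation of that build was used.

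The 4 libraries had nearly the same depth, between 7.82 and 7.85 M reads as implied by the input background and the default genome size of the peak caller. Of the 26711 regions with a peak in P cells at 4 h, 56.2% (15022) had no peak in the other 3 lists, and 5.37% were members. Among the 8006 regions with a −log10 p of 30 or more, the members made up 17.9%. Another 6501 of these strong regions held a C peak at 4 h, 1535 of which also held a day −2 peak. The remaining 71 had a day −2 peak but no C peak at 4 h, and 68 of them had been listed in P cells at day −2. In the reverse direction, of 2764 regions with a C peak of the same strength at 4 h, 17 had no peak in the other lists, or 0.615%. The share over all C regions at 4 h was not computed. The C list was also shorter, with 13525 peaks against 26713 in P cells at 4 h, so the 2 directions are not alike. Each list came from 1 library.

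The share of P regions found in that list alone fell with strength. It was 87.8% (95% Wilson interval 86.4 to 89.2) for a −log10 p from 5 to 10 and 55.8% (54.5 to 57.2) from 20 to 30. From 30 to 50 it was 28.7% (27.4 to 30.1), with 1235 members of 4305 regions. From 50 to 100 it was 6.78% (5.91 to 7.75), with 195 members of 2878. Among the 823 strongest regions, with a −log10 p of 100 or more, 4 were members (0.486%, 0.189 to 1.24). Most members thus lay at the lower end of the strong regions.

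**Figure D1:**
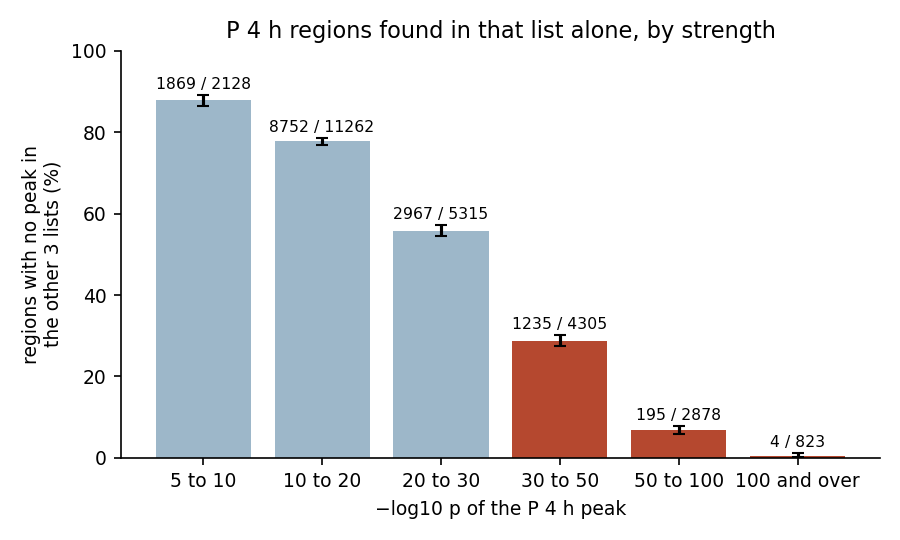
The horizontal axis gives the −log10 p of the P peak at 4 h in 6 bins and the vertical axis the percentage of regions with no peak in the other 3 lists, with 95% Wilson intervals and the numbers of regions above the bars. The share falls from 87.8% in the weakest bin to 0.486% in the strongest, and the 3 red bars hold the members.

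Members had a median −log10 p of 37.3, from 30.005 to 126.03, and a median fold enrichment over input of 17.5, from 3.42 to 49.2. Over all 26711 P regions at 4 h the medians were 19.97 and 10.9. Each member was formed by a single P peak. Its summit carried a median of 32 fragments, with 10% of members at 26 or fewer and 10% at 44 or more. Over all P regions at 4 h the median was 21 fragments. Median peak width was 282 bp (279 to 286). Strong regions that also held a C peak were wider, at 316 bp (314 to 319), and stronger, at a median of 43 fragments. Within the −log10 p range from 30 to 50 the widths were 277 bp (275 to 281) for members and 287 bp (285 to 290) for regions with a C peak. The summit lay a median of 13.5 bp from the middle of the peak in members of that range (12.5 to 14.5) and 14.0 bp (13 to 15) in the others.

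The weakest members sat just inside the threshold, and 9 were tied there. Examples were chromosome 9 from 75837060 to 75837594 and chromosome X from 149868336 to 149868533. Each of the 9 had a −log10 p of 30.005, a fold enrichment of 16.2 and 23 fragments. The regions just outside it, at positions 73347474 to 73347985 of chromosome 2 and 3857080 to 3857318 of chromosome 15, had a −log10 p of 29.98 and 29.9. Their fold enrichments were 14.9 and 14.5, with 27 and 28 fragments over a higher input background.

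A site that a list lacks was not measured there, but the threshold of the list limits how many fragments it can have had. With a −log10 p of 5 as the limit and the input background of the site carried over from P cells at 4 h, the median member could have had at most 6 fragments in C cells at 4 h. On this limit the P to C ratio of summit fragments was at least 5.14 at the median member (5 to 5.20), and at least 3 at 1425 of the 1434 members. The rule sets much of this, since it asked for strength in P cells and no C peak. The members named just inside the threshold, with 23 fragments against a limit of 5 fragments, already had a bound of 4.6. The −log10 p limit of 5 may be too low, because a peak must also span a fragment length above the threshold to be listed. An unlisted C site may thus have had more fragments than this limit allows, and the ratio may be smaller. In the C list at 4 h, 13.1% of peaks had a −log10 p under 10 and 43.4% one under 15. With limits of 10 and 15 the median C site could have had 11 and 15 fragments, and the median ratio was at least 3.00 and at least 2.12. A ratio of at least 3 was left at 725 members (50.6%) under the limit of 10 and at 105 (7.32%) under 15. At the limit of 15, 1020 members (71.1%) kept a ratio of at least 2. These medians and counts include the members in stretches of raised input (below), where the limit carried over from the P input may not hold.

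**Figure D2:**
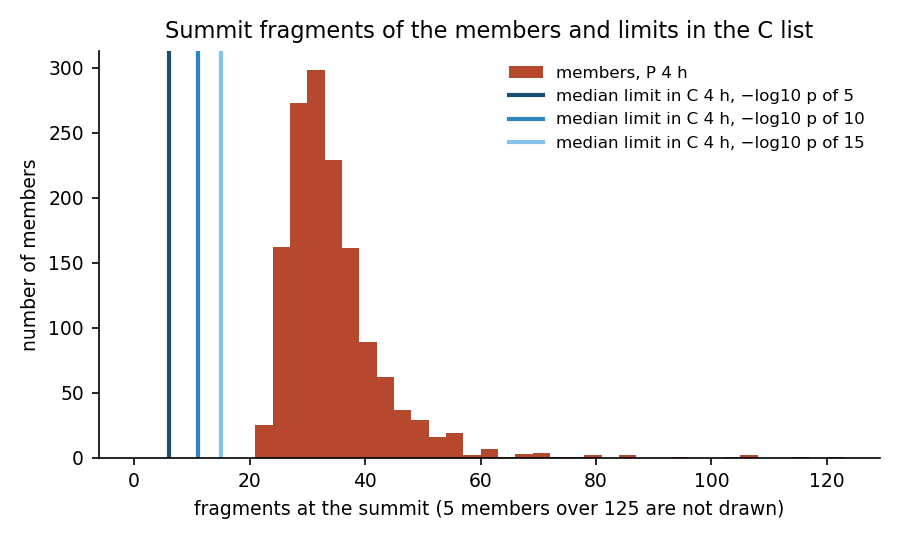
The histogram gives the number of members against the fragments at their summit in P cells at 4 h, and the vertical lines mark the median number of fragments that a site missing from the C list at 4 h can have had under 3 limits. The median of the members is 32 fragments, to the right of the limits of 6, 11 and 15.

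The same limits were set for the day −2 lists. Under a −log10 p of 5, members could have had a median of 7 fragments in P cells before induction, so the ratio of 4 h to day −2 in P cells was at least 4.38 at the median (4.33 to 4.43). With limits of 10 and 15 it was at least 2.70 and at least 2.00. In C cells at day −2 the median limit was also 7 fragments, and the ratio of P cells at 4 h to it was at least 4.6. With limits of 10 and 15 this ratio was at least 2.62 and at least 1.94, and under the last limit 46.5% of members had a ratio of at least 2.

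For comparison, P and C fragments were both known at the 6501 strong regions that also held a C peak at 4 h. There the median was 43 fragments in P cells and 23 in C cells, and the median P to C ratio was 1.85 (1.83 to 1.87). These regions were chosen by their strength in P cells and not in C cells, which favours a high P to C ratio. A ratio of at least 3 was found at 549 of them (8.44%), and the ratio exceeded 3.29 at 5% of them. For members, the share with a bound of at least 3 was 99.4%, 50.6% and 7.32% under the limits of 5, 10 and 15. How members compare with shared regions at this ratio thus depends on the limit, and the rule that chose the members itself raises their bounds. In the range from 30 to 50, which holds most members, the regions with a C peak had a median of 33 fragments in P and 18 in C cells, a median C −log10 p of 17.8, and a C value under 10 in 8.57% of cases. Members of this range had slightly fewer P fragments than its shared regions, with medians of 31 (31 to 31) and 33 (33 to 34). Their median −log10 p was also lower, 35.8 (35.6 to 36.5) against 38.3 (38.0 to 38.9), so the range did not fully match the classes in strength. The C background at shared strong regions was between 0.474 and 2.04 times the P background in the middle 80% of cases, which sets how well the limits can be carried from one input to the other.

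**Figure D3:**
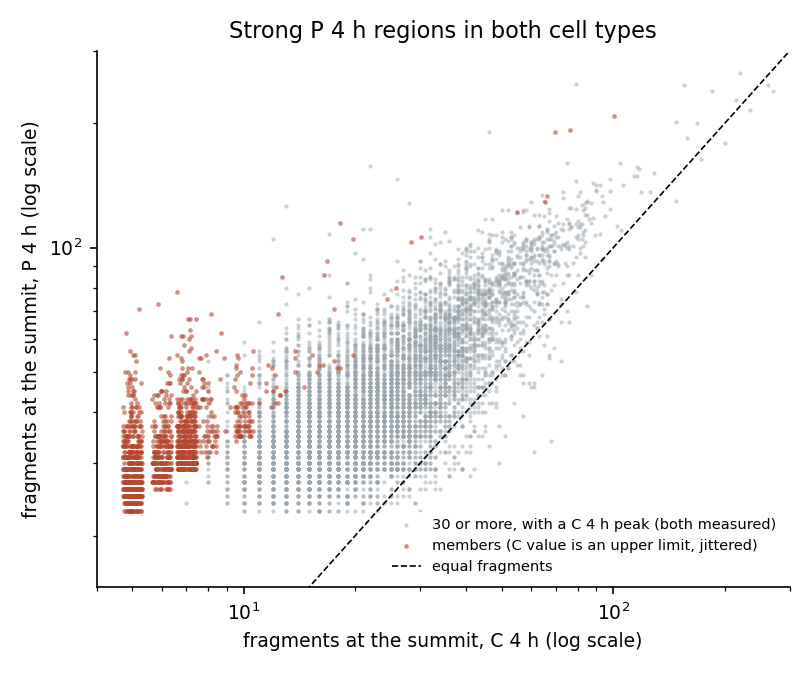
Each point is a P region of −log10 p 30 or more, with summit fragments in C cells at 4 h on the horizontal and in P cells at 4 h on the vertical log axis. Grey points were measured in both lists (medians 23 and 43), red points are the members at their limit in C cells for a −log10 p of 5 with the P input carried over (median 6), spread slightly sideways, and the dashed line marks equal fragments.

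The strongest member lay on chromosome 7 from 78675880 to 78676182. It had 71 fragments at the summit (exact Poisson interval 55.5 to 89.6) and a fold enrichment of 49.2. Its input was at the genome background, the floor that many other members shared. The limit was 5 fragments in C cells at 4 h, 6 in P cells at day −2 and 5 in C cells at day −2, so the P to C ratio at 4 h was at least 14.2, and at least 5.92 under the limit of 15. Another P region lay 0.468 kb from its summit. The nearest C region was 55.5 kb away and had 18 fragments in C and 45 in P cells.

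The member next in strength, at 110008363 to 110008894 of chromosome 2, was found with 78 fragments (61.7 to 97.3) and a limit of 7 in C cells at 4 h. A C region stood 12.0 kb away with 14 fragments in C and 24 in P cells. On chromosome 4 from 47251945 to 47252299, the member had 73 fragments against a limit of 6, and the nearest C region, at 12.3 kb, had 10 in C and 22 in P cells. On chromosome 10 from 91610117 to 91610536, the member had 62 fragments against a limit of 5. Its nearest C region was at 3.36 kb and had 15 fragments in C and 52 in P cells. At these 4 sites, the ones with a −log10 p of 100 or more, P fragments exceeded C fragments at the nearest C region. This is common to the shared strong regions, 95% of which had a P to C ratio of 1.10 or more.

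The fifth strongest member differed from these. It lay on chromosome 10 from 117871827 to 117872275 and had 115 fragments, but over an input background of 13.8 times the genome background, so its fold enrichment was 15.7. The nearest C region, 177 kb away, had 116 fragments in C cells at a −log10 p of 20.9, and 157 in P cells. Input was raised in C cells along this stretch too (below), so the limit carried over from the P input is not given as a bound here. Members of equal value followed on chromosome 6 from 119437699 to 119438005, chromosome 8 from 111186693 to 111187043 and chromosome 17 from 63360100 to 63360753, each with 67 fragments, a fold enrichment of 34.0 and a ratio of at least 9.57, or 6.09 and 4.19 under the limits of 10 and 15. The site on chromosome 16 from 44624447 to 44624727 had 56 fragments and another P region at 1.65 kb. The site on chromosome 17 from 81279719 to 81280168 had 61 fragments and lay 11.3 kb from a C region with 66 fragments in C and 98 in P cells. At the strongest members other than the fifth, the P to C ratio at 4 h was at least 9.57 under the limit of 5, 6.09 under 10 and 4.19 under 15, with the background carried over from P cells.

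The distance from a member to other regions was not in the rule, but the rule did use the C list, since a member may not overlap a C peak. The shares of C neighbours are therefore a description. A P region other than the member itself lay within 10 kb of 50.5% of members (47.9 to 53.1) and of 51.3% (50.1 to 52.5) of the strong regions with a C peak, and these intervals overlapped. The share over all P regions at 4 h was 46.4%, and it was lower, at 43.9% (43.1 to 44.7), for weaker regions found in P cells at 4 h alone. A C region at 4 h lay within 10 kb of 25.2% of members (23.1 to 27.6), against 34.3% (33.1 to 35.4) of the strong regions with a C peak, which were measured to a C region other than their own. The share was 25.4% (24.7 to 26.2) for weaker regions found in P cells at 4 h alone and 28.8% for all P regions. Within the −log10 p range from 30 to 50 the C shares were 25.7% (23.3 to 28.2) and 32.9% (31.2 to 34.6). The median distance to the nearest C region was 29.5 kb for members and 20.3 kb for strong regions with a C peak. It was 32.4 kb for the weaker P-only regions and 27.1 kb for all P regions at 4 h.

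The nearest P neighbour was then described, a measure chosen after the values were seen and one that also reads the C list. Among the 724 members with a P region within 10 kb, that region lacked a C peak in 61.7% of cases (58.1 to 65.2). The share was 51.2% (49.5 to 52.8) around the strong regions with a C peak and 54.2% around all P regions. Around the weaker P-only regions it was 57.3% (56.0 to 58.5), and this interval overlapped that of the members. Where the neighbour did hold a C peak, its log2 ratio of P to C fragments had a median of 0.82 (0.70 to 0.96) over 277 neighbours of members and of 0.68 (0.67 to 0.70) over 1629 neighbours of strong regions with a C peak, and these intervals overlapped. Around all P regions it was 0.71, and around the weaker P-only regions 0.76 (0.74 to 0.79). With a window of 100 kb the values were 60.5% (57.8 to 63.1) against 53.0%, and 0.82 (0.75 to 0.91) against 0.68 (0.67 to 0.70). Around the weaker P-only regions they were 58.2% (57.3 to 59.0) and 0.74 (0.72 to 0.76), and both intervals overlapped those of the members. Outside chromosome 10 the 10 kb values for members were 61.1% and 0.78 (0.68 to 0.91). Neighbours share a library with the members and some are counted more than once, so these shares describe these libraries.

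The median distance from a member to the nearest other member was 284 kb. Within 10 kb, 100 members (6.97%, 5.77 to 8.41) had another member, against 4.20% (3.74 to 4.71) of the strong regions with a C peak, 4.14% (3.81 to 4.48) of the weaker P-only regions and 4.10% of all P regions. Both members of a close pair are counted, so the intervals for members are too narrow here. Part of the members lay in stretches of raised input (below), and for members with an input background under 3 times the genome background the share was 5.79% (4.63 to 7.20), against 4.08% (3.57 to 4.64) of strong regions with a C peak under the same cut. Those intervals overlapped. A P region of day −2 lay within 10 kb of 4.53% of members (3.57 to 5.74), close to the 4.85% of all P regions at 4 h. The share was 5.65% (5.11 to 6.23) for strong regions with a C peak and 4.34% (4.01 to 4.70) for the weaker P-only regions.

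**Figure D4:**
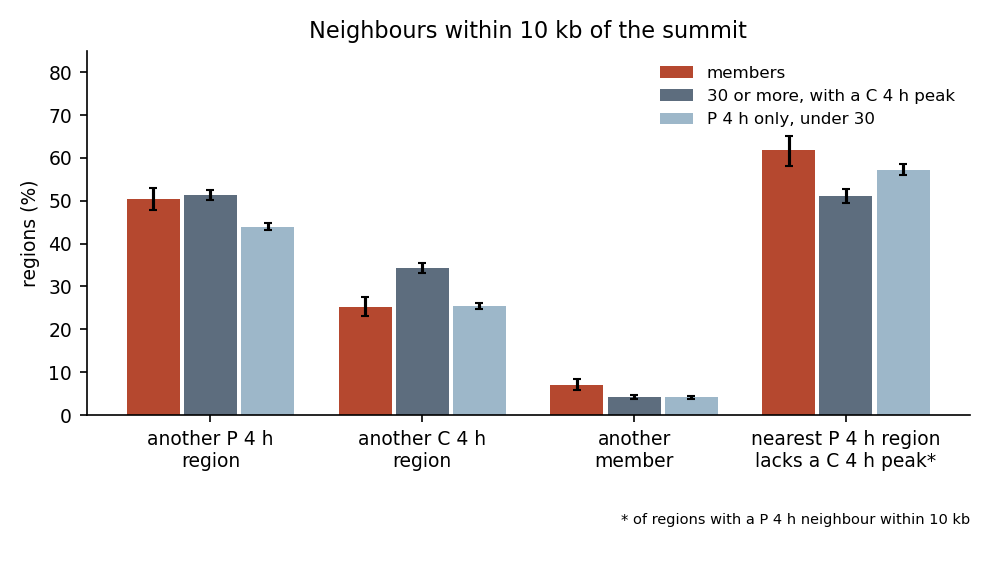
The bars give, for members, for strong P regions with a C peak and for weaker P-only regions, the percentage with a given neighbour within 10 kb of the summit, with 95% Wilson intervals. The classes differ little in P neighbours for the strong ones (50.5% and 51.3%). A C neighbour is found at 25.2% of members, 34.3% of strong regions with a C peak and 25.4% of weaker P-only regions.

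The order of the strong P regions along the chromosomes, of which members are 17.9%, is given as a description. In this order, 887 members were next to no other member, 202 runs held 2 consecutive members, 32 held 3, and 10 held 4 to 6. The longest runs held 6 members and C peaks among them. On chromosome 10 from 122238835 to 125552796 there were 3 C and 26 P peaks, and on chromosome 14 from 106792963 to 116245231 there were 2 C and 15 P peaks. Among the runs of 5, that on chromosome 10 from 106670334 to 106754875 had no C peak and an input background of 11.3 to 86.8 times the genome background. A run on chromosome 14 from 48719052 to 48898736 had 5 members over 180 kb with a −log10 p from 35.1 to 91.8, 10 P peaks and no C peak, and an input background of 1.00 to 2.04 times the genome background. A run on chromosome 2 from 110203290 to 110550566 had 5 members, 11 P peaks and no C peak over 347 kb, with a background of 1.00 to 2.17. Of the runs of 4, that on chromosome 2 from 74723192 to 75062857 held 2 C and 14 P peaks. Others without a C peak lay on chromosome 9 from 82755409 to 82891580, with 4 members, 5 P peaks and no C peak, and on chromosome 6 from 30506135 to 30611170, with 4 members, 6 P peaks and no C peak. At the other extreme, the member farthest from another P region lay on chromosome X from 19924037 to 19924474. Its nearest P region was 521 kb away, and it had 23 fragments.

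No 50 kb window held more than 3 members, and 12 windows without overlap held 3. Of these, the windows with the highest summed −log10 p are described. The first was on chromosome 10 from 107338456 to 107358856, with 52 to 105 fragments and an input background of 10.9 to 15.2, and the second on chromosome 10 from 107600617 to 107628884, with 56 to 86 fragments and a background of 7.56 to 12.1. The third was the start of the run on chromosome 14, from 48719052 to 48757880, with 29 to 55 fragments.

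Members were found on each of chromosomes 1 to 19 and X, and 1 lay on an unplaced contig. As a share of the strong P regions of a chromosome, they were most frequent on chromosome 10, with 114 of 489 (23.3%, 19.8 to 27.3), and least frequent on chromosome 5, with 48 of 389 (12.3%, 9.43 to 16.0). The share on the other chromosomes lay between 12.8% on chromosome 17 and 21.6% on chromosome X. The intervals of chromosomes 10, 6 (21.4%, 18.4 to 24.7) and X (15.8 to 28.9) overlapped. Among all P regions at 4 h, the share without a C peak was also lowest on chromosome 5 (49.6%), and it was 62.1% on chromosome 10 and 66.9% on X. Without chromosome 10 the share over all strong regions was 17.6% (16.7 to 18.4). Chromosome 10 also had the raised input described next, with 36 of its 114 members at 3 or more times the genome background. Chromosome 6 had 32 of 136 at that level, and X none. With only regions under 3 times, the share of chromosome 10 was 21.4% (17.5 to 25.9). This was below the 21.6% of X over all its strong regions, and the interval overlapped that of all strong regions outside chromosome 10. The share under this cut was not computed for chromosomes 6 and X.

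**Figure D5:**
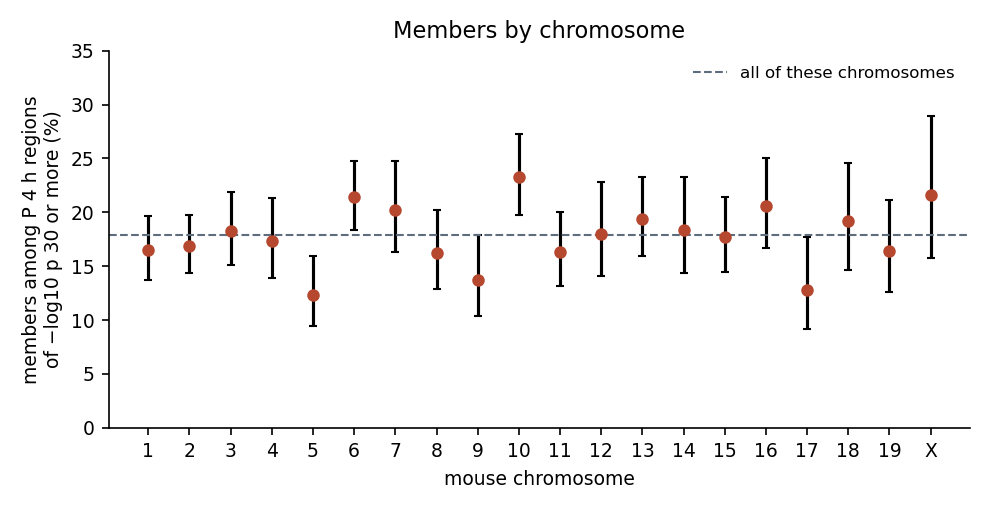
For each mouse chromosome the point gives the percentage of P regions of −log10 p 30 or more at 4 h that are members, with its 95% Wilson interval, and the dashed line the share over these chromosomes. Chromosome 10 is highest at 23.3% and chromosome 5 lowest at 12.3%.

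The input background enters the p value and so took part in choosing the members. Its median was 1.88 times the genome background for members and 2.17 times over all P regions at 4 h. The median member had a background of 0.866 fragments. Input of 3 or more times the genome background was recovered at 155 members (10.8%, 9.31 to 12.5), against 18.2% of all P regions at 4 h. Input of 10 or more times was recovered at 22 members (1.53%, 1.02 to 2.31), against 0.588% of all P regions. Of these 22 members, 20 were on chromosome 10. From 106670334 to 107628884 there were 10, with 51 to 191 fragments and a fold enrichment of 3.42 to 15.4, and the 11 C regions of that span had a median background of 2.40 times. From 116433385 to 117872275 there were another 10, with 50 to 209 fragments, and the 27 C regions there had a median background of 72.5 times. The member with the highest background, on chromosome 10 from 116873928 to 116874749, had 209 fragments over 130 times the genome background and a fold enrichment of 3.44. The part of raised input in the presence of these 20 members was not tested. Without chromosome 10, a C region lay within 10 kb of 25.2% of members and 34.5% of strong regions with a C peak. Another member lay within 10 kb of 6.36% (5.17 to 7.81) and 3.95% (3.49 to 4.46), where the first interval again counts both members of a close pair.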

How the data were processed

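The authors sequenced ChIP and input DNA on an Ion Torrent instrument, cleaned reads with FASTX-Toolkit, aligned them to mm9 with Bowtie (0.12.8) keeping unique alignments, removed duplicates, and down-sampled the libraries to equal read numbers with SAMtools (1.3.1). The authors called peaks with MACS2 (2.0.10.20131028), 1 ChIP library against input per condition. The deposited lists give a score (not used here), a fold enrichment (at the summit, the ratio of ChIP to local input fragments, 1 being added to each), a −log10 p, a −log10 q and the summit offset. How the input entered each call is not stated beyond this.

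Members and comparisons were chosen with earlier results of these data known. From the fold enrichment and the −log10 p together, the whole number of summit fragments and the local input level were solved for, within 0.1 of the −log10 p for 100% of peaks in all 4 lists, with a ChIP scaling of 0.9985 in P cells at 4 h and 0.9963 at day −2. On simulated data, 1974 of 1974, 1957 of 1957 and 1955 of 1955 peaks were recovered. The simulation used a few low background levels only, so recovery at members with strongly raised input was not checked by it. Depth was derived with a genome size of 2.7e+09 bp, the default of the peak caller, which was run with default settings apart from its p threshold. The genome background is the 1% quantile of the recovered background. For a missing site, with the relative input background taken from P cells at 4 h, the limit is the largest number of fragments that stays under a −log10 p of 5 (also 10 and 15). Distances are between summits. Shares have 95% Wilson intervals, medians intervals from order statistics, and fragments exact Poisson intervals. Named regions are the 10 strongest members, those next to the threshold, the extremes of input background and isolation, and 3 windows of 50 kb with the most members (ties by summed −log10 p). Runs were added after the values were seen. Alternatives are given in the closing section. Python 3.11.15, numpy 2.4.6, pandas 2.3.3, scipy 1.17.1, statsmodels 0.14.6 and matplotlib 3.10.9 were used.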

Additional observations from a re-analysis of the deposited data

Results flagged for a closer look

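The input DNA was the reference for the peak calls and was itself raised at some members. A P input background of 10 or more times the genome background was recovered at 22 members, 20 of which were on chromosome 10. In the C list at 4 h the median background over the C regions of the same spans was 2.40 times (chromosome 10 from 106670334 to 107628884) and 72.5 times (from 116433385 to 117872275). The members with such a background outside chromosome 10 lay on chromosome 11 from 3053761 to 3054037, at 58.6 times, and on chromosome 7 from 38985303 to 38985540, at 24.2 times.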

How the results depend on the processing

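No paired analysis was possible because each group has 1 sample. The 12 results were recomputed under 20 settings, which gave 60 values, and 36 of them fell outside the interval of the value given above (for a number of sites, beyond 1.5 times) while 24 did not. The threshold on strength, which sets the members, moved most results. At a −log10 p of 20 or more there were 4401 members (33.0% of regions that strong, 39.2% on chromosome 10 and 28.1% on chromosome 5), with a median of 24 fragments, 13.3% of members near another member, a P to C ratio of at least 4.00 and a ratio of 4 h to day −2 of at least 3.33. At 50 or more there were 199 members (5.38%, 9.65% on chromosome 10 and 3.55% on chromosome 5), with 45 fragments, 22.6% near a C region, 3.02% near another member, 13.6% with an input background of at least 3 times, and ratios of at least 7.33 and 6.17. Stricter overlap adds members by construction. A reciprocal overlap of 50% gave 24.7%, summits within 100 bp 19.8%, and lists kept to a −log10 p of 10 or more 21.7% of strong regions. Merging peaks within 1000 bp lowered the share near a C region to 21.1% and that near another member to 5.76%. Windows of 1 and 100 kb gave 3.07% and 78.9% near a C region, and 0.837% and 30.7% near another member. Among members with an input background under 3 times, 4.93% had another such member within 10 kb, an alternative added after seeing the data. Limits at 10 and 15 lowered the P to C ratio to at least 3.00 and 2.12 and that of 4 h to day −2 to at least 2.70 and 2.00, while the genome background of the other library raised them to 6.40 and 5.33. Cuts of 2 and 5 times gave 49.1% and 3.00% of members with raised input. Chromosome 10 stayed above chromosome 5 under each of the 3 alternatives run on them. With 1 library per condition, no spread between cultures is known. In the C list at 4 h, 13.1% of peaks had a −log10 p under 10, so weak C sites may be missing from it.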
